A study of Homo sapiens with 42 samples.

Results

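The regions described here were accessible in untreated 22RV1 cells and in the untreated cells of no other line of the study. 22RV1 is a prostate adenocarcinoma line. A region was a stretch of at least 100 bp on chromosomes 1 to 22 or X that a called interval covered in all 3 DMSO lists of 22RV1, and that no interval overlapped in any of the 18 DMSO lists of the other 6 lines. There were 8122 such regions among the 67653 segments found in all 3 DMSO lists of 22RV1 (12.0%), and the other 59531 segments are called shared below. Summed over the 7 lines of the series, 391172 segments were found in all 3 DMSO lists of a line. The assay was ATAC-seq: a transposase cuts and tags the DNA that nucleosomes leave free. The samples were unmodified (wild-type) cells exposed for 4 h to DMSO, the negative control, or to FHT-1015, which blocks the ATPases SMARCA4 and SMARCA2, and each of the 14 groups of line and treatment held 3 biological replicates. The other lines were HCT116 (colorectal adenocarcinoma), DU4475 (breast carcinoma), MV411 (acute myeloid leukaemia), RD (rhabdomyosarcoma), A375 (melanoma) and 92-1 (uveal melanoma). The sources used here state neither the dose of FHT-1015 nor whether replicates came from separate cultures, so the p-values measure the spread between these samples. Each cell type is represented by 1 cell line, so line and lineage cannot be told apart.

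SMARCA4 and SMARCA2 are the alternative ATPases of the BAF complexes, which slide and evict nucleosomes with the energy of ATP and keep many enhancers accessible. Enhancers are far more cell-type-restricted than promoters, because they are opened where lineage transcription factors bind. In prostate cells the pioneer factor FOXA1, HOXB13 and GATA2 act at enhancers of androgen-responsive secretory genes such as KLK3, which encodes prostate-specific antigen. 22RV1 comes from a castration-resistant xenograft.

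Most of the regions lay far from promoters, so that the 300 bp promoter windows of RefSeq (GRCh38.p14, 250 bases before and 50 after a start) met few of them. Sequence is shown for 6 windows that a region overlapped: a prostate secretory gene, a gene of androgen inactivation, a liver-type gene with an HNF1 match, a vesicle transport gene, a subunit of the inhibited complex, and the promoter with the strongest signal. Capitals mark the bases that the region covered.
KLK2 (chr19:50873189-50873488, plus strand): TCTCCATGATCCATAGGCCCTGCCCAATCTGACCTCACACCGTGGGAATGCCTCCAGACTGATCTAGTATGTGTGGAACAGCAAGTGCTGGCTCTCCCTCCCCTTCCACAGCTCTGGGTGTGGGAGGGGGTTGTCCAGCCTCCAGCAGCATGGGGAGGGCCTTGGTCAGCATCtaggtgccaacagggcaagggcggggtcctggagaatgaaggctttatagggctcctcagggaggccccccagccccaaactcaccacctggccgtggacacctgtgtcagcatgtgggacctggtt
UGT2B15 (chr4:68670603-68670902, minus strand): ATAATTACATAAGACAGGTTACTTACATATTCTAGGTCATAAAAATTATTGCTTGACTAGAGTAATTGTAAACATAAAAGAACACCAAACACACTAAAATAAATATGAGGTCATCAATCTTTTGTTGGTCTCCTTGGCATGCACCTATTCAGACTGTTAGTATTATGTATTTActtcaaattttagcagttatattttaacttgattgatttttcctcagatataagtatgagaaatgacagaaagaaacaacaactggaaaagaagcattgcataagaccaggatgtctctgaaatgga
KLKB1 (chr4:186227257-186227556, plus strand): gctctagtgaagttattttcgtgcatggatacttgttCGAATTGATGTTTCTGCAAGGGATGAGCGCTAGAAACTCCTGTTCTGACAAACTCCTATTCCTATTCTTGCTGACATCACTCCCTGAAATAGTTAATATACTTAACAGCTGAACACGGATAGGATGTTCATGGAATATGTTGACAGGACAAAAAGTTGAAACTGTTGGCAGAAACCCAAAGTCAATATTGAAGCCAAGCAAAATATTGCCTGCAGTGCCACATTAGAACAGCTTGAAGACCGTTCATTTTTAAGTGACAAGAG
RAB27A (chr15:55248999-55249298, minus strand): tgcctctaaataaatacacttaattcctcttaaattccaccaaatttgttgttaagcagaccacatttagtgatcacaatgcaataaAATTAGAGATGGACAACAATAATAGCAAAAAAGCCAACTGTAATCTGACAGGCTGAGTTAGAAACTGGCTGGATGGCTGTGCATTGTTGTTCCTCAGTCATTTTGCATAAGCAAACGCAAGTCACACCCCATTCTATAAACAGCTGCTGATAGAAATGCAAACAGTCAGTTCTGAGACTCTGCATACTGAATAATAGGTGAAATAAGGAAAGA
SMARCD2 (chr17:63838679-63838978, minus strand): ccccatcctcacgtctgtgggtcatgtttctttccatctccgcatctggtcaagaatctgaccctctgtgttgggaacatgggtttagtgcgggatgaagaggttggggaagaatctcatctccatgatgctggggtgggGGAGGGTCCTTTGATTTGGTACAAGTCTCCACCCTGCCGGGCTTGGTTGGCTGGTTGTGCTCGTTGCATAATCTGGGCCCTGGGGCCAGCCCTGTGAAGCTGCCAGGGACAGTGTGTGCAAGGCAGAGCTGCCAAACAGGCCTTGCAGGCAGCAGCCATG
C5orf58 (chr5:170232756-170233055, plus strand): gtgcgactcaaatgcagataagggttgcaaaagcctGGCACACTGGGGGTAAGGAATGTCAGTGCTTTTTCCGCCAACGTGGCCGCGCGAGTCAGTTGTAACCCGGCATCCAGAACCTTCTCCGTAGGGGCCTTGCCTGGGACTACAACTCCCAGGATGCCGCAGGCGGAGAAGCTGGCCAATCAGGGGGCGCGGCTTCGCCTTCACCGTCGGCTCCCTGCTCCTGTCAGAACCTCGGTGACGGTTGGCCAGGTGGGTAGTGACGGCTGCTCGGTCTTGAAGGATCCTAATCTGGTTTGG
All coordinates are hg38, written from 1. The KLK2 and UGT2B15 windows were covered from their upstream edge and not at the start itself, whereas the KLKB1, RAB27A, SMARCD2 and C5orf58 windows were covered to their downstream edge.

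The values analysed were the authors' peak lists, which give no read totals. Over the 42 lists they held 114291 to 431956 peaks. The lists of 22RV1 held 240484 to 331713 peaks with DMSO and 267505 to 371713 with FHT-1015. The background pileup, a stand-in for depth that was solved from each peak's fold and p-value, was 0.633 ± 0.0889 reads in the DMSO samples (SD, n = 3). In the FHT-1015 samples it was 0.895 ± 0.128 reads (SD, n = 3), and the groups did not overlap. At most 0.1402% of the intervals of a pair of 22RV1 lists were identical, so each list counted as 1 sample. Whether this background stands for depth alone is not known. The share of strict peaks, with −log10 q of at least 5, was 17.5%, 26.5% and 27.6% of the DMSO lists and 10.1%, 15.5% and 12.9% of the FHT-1015 lists, again without overlap. The background and the share of strict peaks thus differed between the treatments over whole lists, beside every comparison below, and the part of the latter was not tested. Peak names in the lists of 22RV1, 92-1, HCT116 and MV411 carry the word small, whose meaning is not stated. Their intervals had medians of 190 to 236 bp, against 244 to 305 bp in RD, A375 and DU4475, and the part of this in the rule and in the comparison of lines was not tested. In cell populations, fewer cells with an open site and less opening per cell cannot be told apart.

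The regions were narrower and weaker than the shared segments. Their median width was 190 bp (quartiles 152 and 237 bp, range 100 to 933 bp), against 231 bp for shared segments, and together they covered 1653.42 kb. The fold enrichment of a peak, as the authors deposited it, was read as its pileup over the local background, with 1 added to each. The median fold at the regions was 5.29, 6.74 and 6.18 in DMSO replicates 1 to 3, and at shared segments 6.94, 9.02 and 8.30. The median pileup was 10, 13 and 10 reads at the regions and 16, 20 and 17 at shared segments, so counting error alone is large for a single region. Strict peaks were present in all 3 DMSO lists at 2991 regions (36.8%) and at 35717 shared segments. These values belong to the lists that chose the regions and are given as a description.

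Regions were compared with segments just outside the rule, as a description. Among the 211 regions shortest by the rule, within 10 bp of its limit of 100 bp, 58.8% were in no FHT-1015 list of 22RV1 and 2.84% in all 3, and among the 154 segments that fell short of the limit by up to 10 bp and met the rest of the rule the shares were 61.7% and 3.90%. A further 6465 segments had an interval in 1 of the 18 other lists, and 39.7% of these were in no FHT-1015 list and 13.8% in all 3, where over all the regions the shares were 48.3% and 11.4%. With intervals in 2 of the 18 lists there were 4745 segments, 32.6% of them in no FHT-1015 list and 18.5% in all 3.

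With FHT-1015 far fewer of the regions were called, and the gap was wider than at shared segments. Because a region had to be called in every DMSO list, the comparison was made with DMSO samples that the choice had not used: regions were chosen by the same rule from 2 DMSO lists and looked up in the third and in the FHT-1015 lists. Such regions were found in 61.1%, 69.1% and 58.6% of cases in the held-out DMSO replicates 1, 2 and 3 (of 13586, 12114 and 14226 regions). In FHT-1015 replicates 1, 2 and 3 they were found in 26.2%, 22.8% and 22.0% of cases. Every FHT-1015 sample lay below every DMSO sample. The means were 63.0% ± 5.48 for DMSO and 23.7% ± 2.21 for FHT-1015 (SD, n = 3), a difference of -39.3 percentage points (exact permutation test, two-sided, p = 0.1, the smallest that 3 against 3 samples allow).

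Shared segments chosen in the same way were found in 79.1% ± 3.20 of cases in held-out DMSO samples and 60.8% ± 0.740 in treated samples (SD, n = 3), a difference of -18.3 points (exact permutation test, two-sided, p = 0.1). The share of the 22RV1-only regions that was called thus stood 16.1 points under that of shared segments with DMSO (-16.1 ± 2.43) and -37.1 ± 1.53 points apart with FHT-1015. The difference between these, -21.0 points, did not overlap between the groups (exact permutation test, two-sided, p = 0.1). With strict peaks in the lists of the line the first difference was -62.9 and the second -35.2 points, and with pileups thinned to an equal background -59.2 and -28.3 points. Thinning also dropped peaks whose −log10 p then fell below 5, so the cut and the equal background cannot be told apart there. When a DMSO replicate was left out, so that 1 list alone chose the regions, the first difference shrank to -9.06, -6.12 and -6.82 points without DMSO replicate 1, 2 and 3, and the second to -0.93, -0.55 and 0.0996 points.

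**Figure D1:**
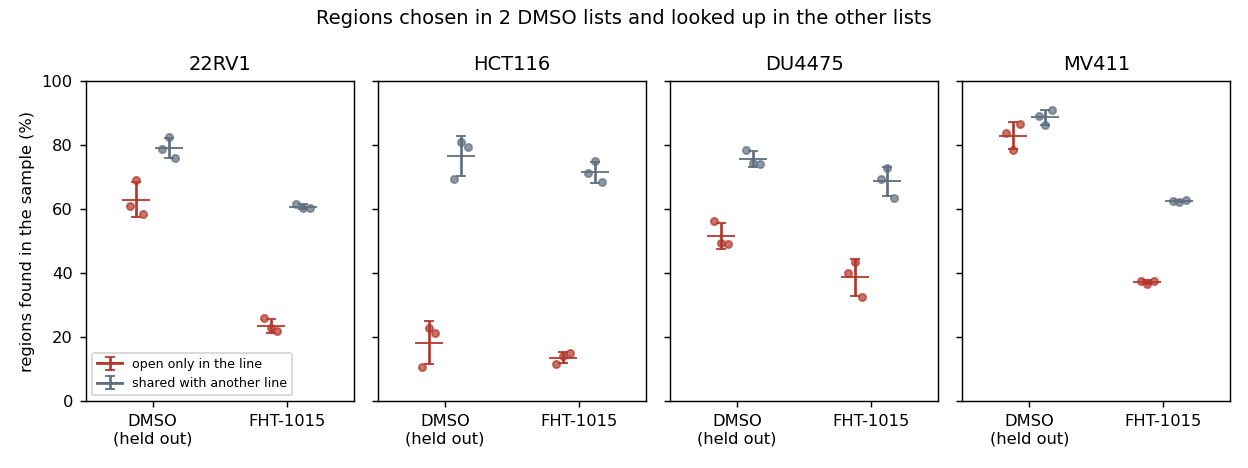
Percent of regions found in each sample (y axis) for regions chosen in 2 DMSO lists of a line, looked up in the held-out DMSO list and in the FHT-1015 lists (x axis). Points are samples, bars the mean and SD of 3, with regions open only in that line in red and shared segments in grey. In 22RV1 the red points stand at 58.6% to 69.1% with DMSO and 22.0% to 26.2% with FHT-1015.

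The same look-up in other lines gave private regions that were also called less often with FHT-1015, by different amounts. The difference was -4.74 points in HCT116, where the groups overlapped (exact permutation test, two-sided, p = 0.4), -12.9 points in DU4475 and -45.6 points in MV411 (p = 0.1 each by the exact permutation test, without overlap). The effect in 22RV1 minus that in the other line was -34.6 points for HCT116 and -26.4 points for DU4475, with adjusted p = 0.2025 each (exact permutation tests over 400 assignments, Benjamini-Hochberg over 3 lines). It was 6.32 points for MV411 (exact permutation test, adjusted p = 0.665). None of these differences between lines passed the threshold of 0.05, and the sign of that for MV411 depended on the threshold for peaks (-4.95 points with strict peaks of the line). Without a DMSO replicate of 22RV1 the difference was -4.32 to -1.38 points for HCT116 and 3.83 to 6.77 points for DU4475, and without a DMSO replicate of MV411 it was -11.8 to -7.15 points for MV411. The gap beyond shared segments, -21.0 points in 22RV1, was also seen at private regions of other lines. It was -19.5 points in MV411 and -5.87 points in DU4475, without overlap (exact permutation test, two-sided, p = 0.1 each). In HCT116 it was 0.348 points, and the groups overlapped. In HCT116 only 18.4% ± 6.74 of private regions were found again in a held-out DMSO sample (SD, n = 3). Background pileups were lower with FHT-1015 in MV411 (0.266 ± 0.00548 against 0.453 ± 0.0484, SD, n = 3), opposite to 22RV1, and their part in the difference between the lines was not tested.

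All 8122 regions were then looked up in the 3 FHT-1015 lists of 22RV1, which had no part in choosing them. They were found at 2615 regions (32.2%) in FHT-1015 replicate 1, at 2368 (29.2%) in replicate 2 and at 2191 (27.0%) in replicate 3. The same lists held 66.0%, 65.2% and 64.3% of all 22RV1 segments. The 3 samples thus lay close to each other. Of the regions, 3921 (48.3%, 95% Wilson interval 47.2% to 49.4%) were in no FHT-1015 list, against 18.3% of all segments, and 923 (11.4%) were in all 3, against 48.9% of all segments. A further 2151 regions were in 1 list and 1127 in 2. Intervals of this kind cover counting error only. Among shared segments 14.2% were in no FHT-1015 list and 54.0% in all 3. The share in no list was 34.3% for regions of at least 200 bp. It was 73.7% after thinning to an equal background with its cut at −log10 p of 5, and 71.6% with strict peaks of the line.

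The regions were weaker than shared segments, and strength with DMSO went with being called. All segments were therefore split into 5 classes of equal size by the lowest of their 3 in-list percentiles of −log10 p. From the weakest to the strongest class, 60.4%, 54.8%, 42.8%, 31.1% and 13.2% of the 22RV1-only regions were in no FHT-1015 list. The shares for shared segments were 30.2%, 22.3%, 14.0%, 6.38% and 1.41%. The share was larger among the 22RV1-only regions in each class. The classes rest on the DMSO lists that also chose the regions, so this is a description. Shared segments weighted to the strengths of the 22RV1-only regions were in no list in 19.6% of cases. Where a region was called in all 6 samples, the median fold was 8.23, 10.8 and 9.55 with DMSO and 5.09, 5.79 and 4.94 with FHT-1015, and for shared segments 9.25, 12.2 and 11.2 with DMSO and 8.16, 8.55 and 7.52 with FHT-1015.

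**Figure D2:**
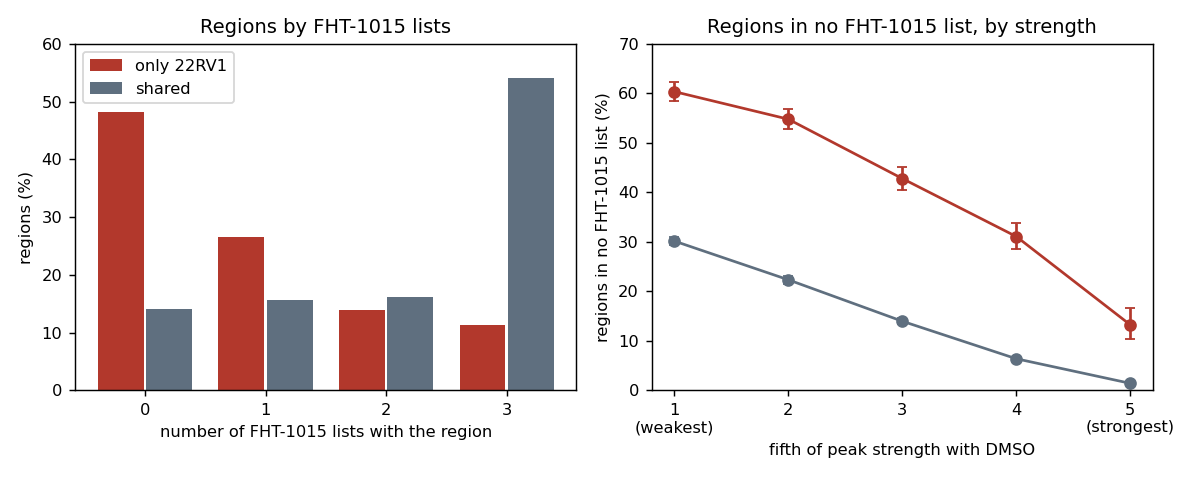
Left, percent of 22RV1-only regions (red) and shared segments (grey) by the number of FHT-1015 lists of 22RV1 that held them. Right, percent in no FHT-1015 list by class of peak strength with DMSO, with 95% Wilson intervals. The red line stands above the grey one in each class, at 60.4% and 30.2% in the weakest and 13.2% and 1.41% in the strongest.

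Regions were also divided by distance from a promoter. The 180 regions within 1 kb of a transcription start were in no FHT-1015 list in 35.6% of cases, against 3.15% of shared segments there. Farther away the shares were 48.6% and 18.5%. The share in no list by chromosome ran from 37.8% on chromosome 12 to 60.2% on X (249 regions), against 48.3% of all the regions.

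The strongest regions differed in what was seen with FHT-1015. The region with the highest rank, chr1:246797630-246797976, lay 41.3 kb from an end of AHCTF1, a gene for a nuclear pore protein. Its folds were 23.1, 28.4 and 24.96 with DMSO and 12.4, 8.73 and 8.90 with FHT-1015, so all treated samples were below all controls. The region chr12:127459776-127460063, outside genes, had folds of 20.4, 29.4 and 31.5 and, with FHT-1015, of 21.5, 22.9 and 16, and its groups overlapped. The region chr5:170232792-170233145 at the start of C5orf58, an uncharacterised gene, had 27.0, 33.8 and 31.6 with DMSO and 14.5, 19.5 and 14.9 with FHT-1015. The region chr9:27436325-27436670 inside MOB3B, a gene for an adaptor of the kind used in Hippo signalling, had 25.8, 32.0 and 33.4 with DMSO. With FHT-1015 it was called in 2 samples, at 3.39 and 4.09.

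A comparison of folds within 1 region is a description, because the lists that chose the regions gave the DMSO values, and a fold is relative to the background of its own list. Of the 1625 strongest regions, those with a percentile of at least 85.2 in each DMSO list, 425 (26.2%) were in no FHT-1015 list and 487 (29.97%) in all 3. Over all the regions the shares were 48.3% and 11.4%. In the strongest class of peak strength above, 1.41% of shared segments were in no list, and in the class next to it 6.38%. The share of shared segments at the cut of 85.2 itself was not computed. The strongest of the regions in no list, chr14:87899239-87899542, lay 93.5 kb from GALC, which encodes a lysosomal galactosidase, with folds of 17.4, 27.4 and 27.7. Next to it in rank outside chromosome 8 was chr9:85408536-85408844, 333.3 kb from AGTPBP1, with 20.3, 26.2 and 21.3. Others lay inside LMCD1 (7.36, 8.19 and 8.27), DCLK3 (14.8, 17.5 and 17.8) and UBE3D (15.1, 22.5 and 24.9). Among the strongest in all 3 lists, that 115.1 kb from FRMD1 (chr6:168196453-168196804) had 21.4, 23.7 and 21.6 with DMSO and 3.95, 4.01 and 4.56 with FHT-1015. Near-identical genes of the OR2T and SPDYE families lie beside 1 region each of these sets (OR2T35 and SPDYE21), where reads may be split between copies.

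**Figure D3:**
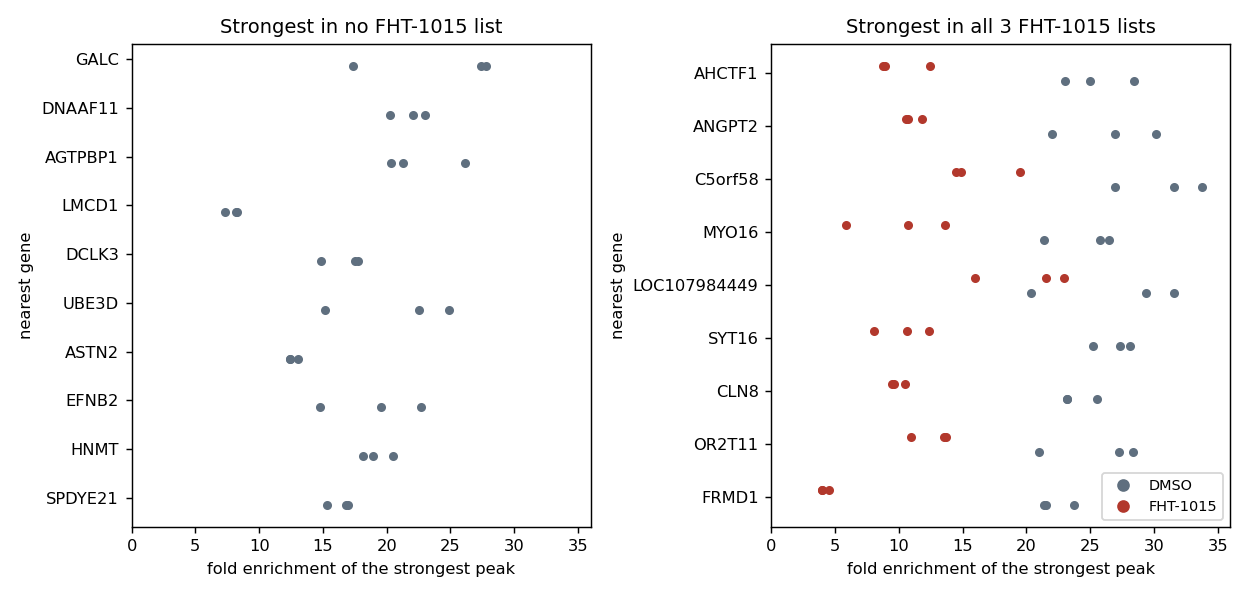
Fold enrichment (x axis) of the strongest peak in each sample at the 10 strongest regions in no FHT-1015 list (left) and at 9 of the 10 strongest in all 3 (right), named by the nearest gene on the y axis. Grey points are DMSO and red points FHT-1015 samples. On the right the groups are apart at FRMD1 (21.4 to 23.7 against 3.95 to 4.56) and overlap at LOC107984449, the nearest gene of the chromosome 12 region (20.4 to 31.5 against 16 to 22.9).

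Loci of androgen-responsive genes held more 22RV1-only regions per open segment than gene loci in general. A locus was the gene with 100 kb on each side. Over 23 such genes, 36 of 211 segments (17.1%) were open only in 22RV1. In loci of all protein-coding genes the share was 10.4%. Neighbouring genes count the same regions, as KLK2, KLK3, KLK4 and KLK15 do with 3, so counts of genes are not counts of separate regions. Of the 23 genes 22 had at least 1, against 41.5% of all protein-coding genes. The gene with none was TRPM8, a cold-sensing ion channel. In the same loci the private share of each other line lay near that over all its segments: 0% in HCT116, 5.60% in DU4475, 25.6% in MV411, 4.88% in RD, 4.20% in A375 and 10.9% in 92-1, where the shares over all segments of the line were 0.915%, 6.996%, 25.1%, 6.81%, 6.12% and 12.3%. The like share over all segments of 22RV1 was 12.0%. The share over loci of all protein-coding genes was computed for 22RV1 only. Of the 36 regions 12 (33.3%) were in no FHT-1015 list and 9 in all 3. Of the 5934 regions in loci of all protein-coding genes 48.3% were in no list and 675 in all 3. Of the 175 shared segments in these loci 11.4% were in no list. The genes were listed from knowledge of the androgen response, with earlier results of these data known, and no test was made of the list.

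**Figure D4:**
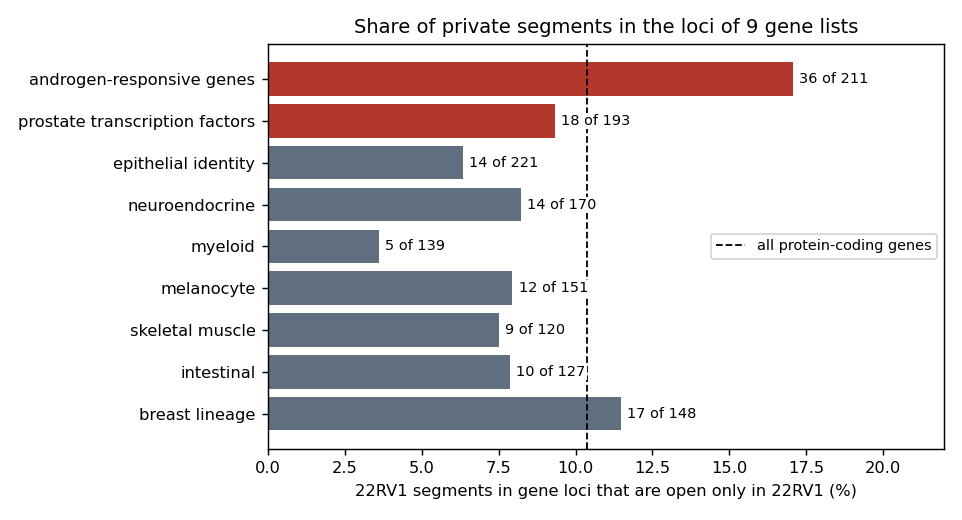
Percent of 22RV1 segments in the loci of each gene list that were open only in 22RV1 (x axis), with the numbers beside each bar and the share over loci of all protein-coding genes (10.4%) as a dashed line. The androgen-responsive genes stand highest at 17.1% and the myeloid list lowest at 3.597%.

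The secreted proteases of the kallikrein cluster, KLK15, KLK3, KLK2 and KLK4, shared 3 regions. The region 194 bp upstream of the KLK2 start (chr19:50873128-50873361), which runs on upstream of the KLK2 window above, where 173 of its bases are the capitals, had folds of 5.88, 7.65 and 9.54 with DMSO, or 19, 21 and 22 reads, and was in no FHT-1015 list. The region 16.1 kb downstream of the KLK4 start (chr19:50894566-50894797) had 7.34, 12.8 and 7.30 with DMSO and 6.52, 7.91 and 5.32 with FHT-1015, with overlapping groups. That 8.67 kb upstream of KLK15 (chr19:50842128-50842362) had 4.68, 7.81 and 5.28, and 5.35 and 3.17 in 2 FHT-1015 samples.

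Among the membrane proteins of the list, FOLH1, which encodes prostate-specific membrane antigen, had 6 regions among 11 segments. Each of the 6 was in at least 1 FHT-1015 list and 3 were in all 3. One of these (chr11:49174827-49174973) had folds of 3.95, 7.32 and 5.74 with DMSO and 6.16, 9.37 and 4.45 with FHT-1015, with overlapping groups. FOLH1 has a near-identical copy elsewhere on chromosome 11, so its values are uncertain. The region inside STEAP2, a metalloreductase gene (chr7:90231353-90231597), was the strongest of the list, with 15.4, 17.8 and 21.6 against 14.3, 14.8 and 13.7. The FHT-1015 samples lay just below the lowest DMSO sample there. The locus of the protease gene TMPRSS2 held 2 regions, inside its neighbours MX2 and MX1, and neither was in an FHT-1015 list. At the first of them (chr21:41364414-41364640) the folds were 11.6, 10.7 and 7.83.

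The elongation factor gene ELL2 had 4 regions, of which that inside the gene (chr5:95888039-95888300) had folds of 9.98, 12.1 and 13.8 and was in no FHT-1015 list. A region at 74.5 kb inside its neighbour CAST (chr5:96036409-96036623) was in all 3, at 8.56, 10.03 and 7.91, against 4.07, 12.7 and 9.30 with DMSO. PMEPA1, an inhibitor of TGF-beta and androgen signalling, had 4 regions. The strongest (chr20:57743749-57743997), 32.4 kb upstream of the start, had 10.1, 18.5 and 18.9 with DMSO and was in 1 FHT-1015 list, at 3.50. The region at 61.9 kb upstream of PMEPA1 was in all 3 lists. The region inside NDRG1, a stress-responsive gene, had 8.78, 7.56 and 10.8, and that 598 bp upstream of FKBP5, a steroid receptor co-chaperone, had 3.31, 3.68 and 3.19. Neither was in an FHT-1015 list.

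Most other loci of the list held a single weak region. ABCC4, a transporter of prostanoids and drugs, had 3 inside the gene, and 1 of them (chr13:95246462-95246666) had folds of 6.98, 10.2 and 5.22 and was in no FHT-1015 list. The other two, in 1 and 2 FHT-1015 lists, lay side by side and had the same fold in 2 DMSO samples. HPGD, which degrades prostaglandins, had a region 112.9 kb from the start of CEP44 with 7.05, 11.4 and 5.22 with DMSO, and 5.09 and 8.97 in 2 treated samples. STEAP4, a metalloreductase like STEAP2, had one with 8.43, 6.80 and 3.92, and 2.51 in 1 treated sample. The region 18.6 kb upstream of SLC45A3, which encodes prostein, had 3.29, 4.66 and 3.12, and 3.93 in 1 treated sample. The region 34.8 kb from an end of PLPP1, a lipid phosphatase gene, had 4.70, 10.7 and 4.57 and was in no FHT-1015 list. The region near ZBTB10 was in all 3 lists, at 4.52, 6.41 and 3.76, against 5.62, 7.77 and 5.33 with DMSO, and its groups overlapped.

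The 20 transcription factors linked to the prostate did not show the same excess: 18 of 193 segments in their loci (9.33%) were open only in 22RV1. Of the 20 genes 10 had none, where 41.5% of all protein-coding genes had at least 1. HOXB13, the homeobox factor that marks the prostate lineage, had none among 6 segments, and SPDEF, ELF3, KLF5 and SOX9 had none either. Of the 18 regions 4 (22.2%) were in no FHT-1015 list and 2 in all 3, against 48.3% and 11.4% of all the regions, and 13.7% of the shared segments in these loci were in no list. The region in the FOXA1 locus (chr14:37544528-37544709), inside MIPOL1, had 5.29, 12.3 and 11.8, and 2.83 and 5.28 in 2 treated samples. The region inside HNF4G, a nuclear receptor gene (chr8:75421711-75421907), had 5.88, 8.70 and 6.88, and 6.33 and 4.94 in 2 treated samples. GATA2, a zinc finger factor of prostate and blood cells, had 2 regions, of which the stronger (chr3:128382269-128382585, inside EEFSEC) had 8.48, 6.82 and 5.97, and 2.63 in 1 treated sample. Of the posterior homeobox genes, HOXD13 had 1 region in its locus (chr2:176062286-176062571), with 5.29, 9.62 and 9.79 and in no FHT-1015 list. HOXA13 had 2, and that inside its neighbour HOXA10 (chr7:27171733-27171874) had 4.06, 4.04 and 4.52 with DMSO and 4.78, 3.75 and 4.06 with FHT-1015, with overlapping groups.

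The loci of the other gene lists, that of epithelial identity among them, lay near or below the share over all gene loci. Regions open only in 22RV1 made up 6.33% of segments in loci of epithelial identity genes, 8.24% for neuroendocrine, 3.597% for myeloid, 7.95% for melanocyte, 7.50% for skeletal muscle, 7.87% for intestinal and 11.5% for breast lineage genes. The label of the line was checked against defining markers. Of 93 segments in loci of 10 prostate markers, 20 (21.5%) were open only in 22RV1, in 9 of the 10 genes. In the same loci 22 of 79 segments of MV411 (27.8%) were open only in MV411, and 5 of 31 of 92-1 (16.1%) only in 92-1. The shares over all segments of these lines were 25.1% and 12.3%. In the same loci 2 of 53 segments of DU4475, 1 of 43 of A375, 0 of 23 of HCT116 and 0 of 39 of RD were open only in that line. The numbers in 22RV1 for 3 markers of each other lineage were 0 of 21 for myeloid, 3 of 19 for melanocyte, 2 of 36 for skeletal muscle, 2 of 32 for intestinal and 8 of 36 for breast markers. The breast markers GATA3 (3 regions), ESR1 (4) and ELF5 (1) thus had a share as high as that of the prostate markers, and the strongest of these, inside SYNE1 beside ESR1 (chr6:152218882-152219203), had folds of 17.0, 24.5 and 16.6 with DMSO and 5.74, 4.02 and 5.88 with FHT-1015. Nearness of a region to a gene does not show which gene it serves.

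Regions open only in 22RV1 were distal. Only 180 of them (2.22%, 95% Wilson interval 1.92% to 2.56%) lay within 1 kb of the start of a protein-coding gene, against 28.4% of shared segments. The median distance to the nearest start was 73.2 kb for the regions and 20.6 kb for shared segments, and 58.7% and 35.3% lay more than 50 kb away. The share inside a gene was much the same, at 46.0% and 47.7%. Private regions of other lines were distal as well: 6.27% of the 255 of HCT116, 2.15% of the 3442 of DU4475 and 1.46% of the 27817 of MV411 lay within 1 kb of a start. For 4162 of the 19974 genes the strand was not in the tables used, and both ends of the gene were taken.

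**Figure D5:**
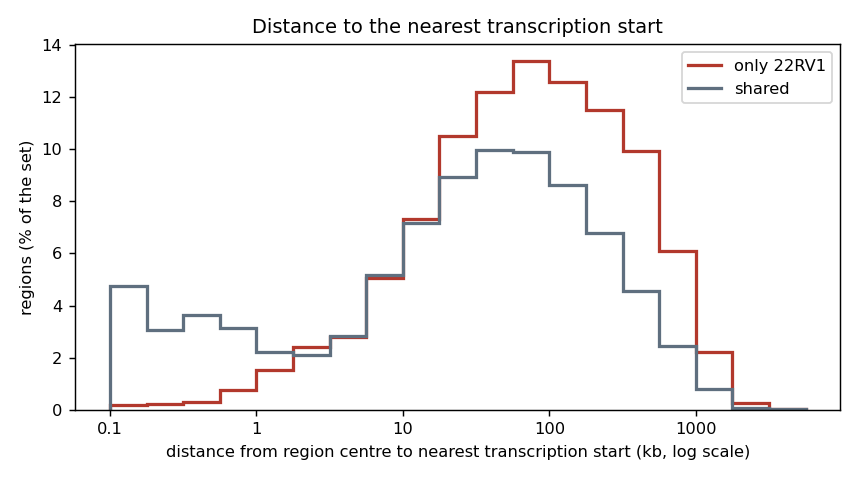
Percent of 22RV1-only regions (red) and shared segments (grey) by distance from the region's centre to the nearest transcription start (x axis, log scale from 0.1 kb, so regions nearer than that are not drawn). The red line peaks near 100 kb and has no peak near the start, where the grey line has one.

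Few promoters were among the regions. Of 22132 promoter windows 74 (0.334%), of 70 genes, overlapped a region, whereas 12709 overlapped a shared segment. Of the 70 regions at these windows 20 (28.6%) were in no FHT-1015 list and 22 in all 3. Over all the regions the shares were 48.3% and 11.4%, and over those within 1 kb of a start 35.6% and 22.8%. Among shared segments within 1 kb of a start 3.15% were in no list and 81.5% in all 3. UGT2B15 encodes an enzyme that conjugates androgens. Its region (chr4:68670730-68670992) had folds of 7.18, 8.57 and 5.84 with DMSO and 3.96, 5.28 and 4.94 with FHT-1015, all treated samples below all controls. UGT2B15 has close relatives in the same gene cluster, so its reads may be split. KLKB1 encodes the liver-made plasma prekallikrein, and its region had 11.7, 11.6 and 11.4 and was in 1 FHT-1015 list, at 3.95. FGA, the liver-made fibrinogen alpha chain, had 5.29, 5.43 and 5.14 and was in no FHT-1015 list. DIO1, which activates thyroid hormone in liver, had 5.19, 8.80 and 6.64, and SLC2A2, the glucose transporter of liver and islets, had 5.28, 4.21 and 5.62, both in no FHT-1015 list. CLRN3 had 9.33, 16.7 and 14.6, and 5.81 in 1 treated sample. SI, the intestinal sucrase-isomaltase, had 4.11, 7.21 and 9.14 with DMSO and 4.52, 6.86 and 3.95 with FHT-1015, with overlapping groups. These genes were picked after their values had been seen.

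RAB27A, which carries secretory vesicles and is on the melanocyte list, had a region at a start inside the gene (chr15:55248969-55249211) with folds of 11.8, 16.3 and 12.3. SMARCD2, a subunit of the BAF complexes themselves, had one with 3.42, 4.09 and 4.82. Neither was in an FHT-1015 list. The pileups at SMARCD2 were 19, 21 and 25 reads.

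The windows at the regions were poorer in G and C than those at shared segments, at a mean of 50.3% against 66.1% and 61.0% over all windows, and the matches to short motifs followed a different pattern. Letters were searched on both strands of the 300 bp windows. The GC box of SP and KLF factors, GGGCGG, was in 21.6% of the 74 windows, 75.2% of windows at shared segments and 56.3% of all windows. The letters of HNF1, GTTAAT, were in 18.9%, 3.22% and 5.54%, at 14 genes. These included KLKB1, SI, FGA and CLRN3, named above, and also GAS2, NCKAP5, MYO1H and ADD3. DIO1 and SLC2A2 had no such match, so the named liver and gut genes do not stand for the 14. In the SI window the letters began at base 85, outside the covered bases 114 to 300. GATA letters, AGATAA, were in 17.6%, 3.92% and 7.88%, and those of TEAD factors, GGAATG, in 21.6%, 9.87% and 12.2%. FOXA letters, TGTTTAC, were in 4.05%, 2.19% and 2.85%. In the KLK2 window the TEAD letters began at base 45 and the GC box at base 192, counted from the 5′ end. In the UGT2B15 window FOXA letters began at base 68, in the covered part. In the KLKB1 window HNF1 letters began at base 129. None of these letter strings contains another of them. The part of base composition in these shares was not tested, and a match is not a bound site.

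Of the 8122 regions 3219 (39.6%) were in at least 1 FHT-1015 list of another line, and 4903 were in none. The matching share over other 22RV1 segments was not computed for the lines together, so this count has no background. It was computed line by line. A region was in at least 1 FHT-1015 list of HCT116 in 911 cases (11.2%), where 21.8% of the 22RV1 segments absent from the DMSO lists of HCT116 were. The numbers were 763 (9.39%, against 16.2%) for DU4475, 719 (8.85%, against 15.2%) for MV411, 622 (7.66%, against 14.7%) for RD, 542 (6.67%, against 19.1%) for A375 and 875 (10.8%, against 17.6%) for 92-1. In each line the share of the regions was lower than that of these segments, which include the regions themselves and segments open in other lines, and which are on the whole wider and stronger. Between 3 and 18 regions were in all 3 FHT-1015 lists of a line, the highest number being that of DU4475. For these counts too no share over other segments was computed.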

How the data were processed

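ATAC-seq peak lists of 42 samples were used, 1 per sample. Per the submitters' processing notes, Bowtie2, Picard, MACS2, limma and HOMER and the build hg38 were used, without versions or order. The sources used here do not state whether reads were shifted for the transposase. The fold enrichment, a ratio, and the −log10 of the p-value and q-value of each peak are as the authors deposited them. Each list is that of 1 sample, and the caller's thresholds are not stated there. The regions, gene lists and tests were chosen with earlier results of these data known.

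Intervals were merged per list and intersected with numpy 2.4.6 and pandas 2.3.3 in Python 3.11.15, and an overlap of 1 bp counted. Pileup and background were solved from fold and p-value with a Poisson tail (scipy 1.17.1), and this, the interval arithmetic and the held-out shares were tested on simulated data. Genes and promoter windows came from RefSeq GRCh38.p14. Transcription starts were used for 15812 genes. No genome was used, so sequence is given for promoter windows only. Groups came from the labels of each sample, and tests were exact permutation tests over samples. Named were the 15 loci with most regions, the listed androgen-responsive genes and prostate factors, and the 10 strongest regions by lowest DMSO percentile, of those in no and in all 3 FHT-1015 lists as well. A few genes and motifs under this rule are not reported here. Whether replicate numbers pair the samples could not be told. Same-numbered 22RV1 samples had correlations of deviations of -0.00878 to 0.00278 and other-numbered ones of -0.00911 to 0.0103, all too small to show a shared culture or its absence.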

Additional observations from a re-analysis of the deposited data

How the results depend on the processing

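In 14 of 14 alternatives the called share of the regions in held-out samples stayed lower with FHT-1015, from -62.9 to -6.12 points, and no alternative could pass 0.05 because of the number of samples. The number of regions was 2991 with strict peaks in the 22RV1 lists, 2079 at equal background and 3565 with a minimum of 200 bp. The setting of equal background includes a cut at −log10 p of 5. It was 12114 to 14226 when a DMSO replicate was left out. The percent in no FHT-1015 list was 71.6 with strict peaks of the line, 64.5 with strict peaks in all lists, 52.4 in shortened lists, 73.7 at equal background, 34.3 at 200 bp and 54.0 with an overlap of 100 bp. Without 1 replicate it was 53.4 to 59.4. The percent within 1 kb of a start was 4.47 with strict peaks in all lists, 2.58 at q below 0.05, 5.07 in a window of 2.5 kb and 2.78 with either gene end (chosen after seeing the data), and 1.85 to 2.19 without 1 DMSO replicate.

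Leaving out 1 replicate gave -40.6 to -6.12 points for the change, -21.9 to 0.0996 for the regions minus shared segments, and for 22RV1 minus another line -39.5 to -1.38 (HCT116), -38.2 to 6.77 (DU4475) and -11.8 to 39.5 (MV411). Leaving out a DMSO replicate leaves 1 list at a time to choose the regions. The values -6.12, 0.0996, -1.38, 6.77 and 39.5 were without a DMSO replicate of 22RV1, and -11.8 was without MV411 DMSO replicate 1. 22RV1 minus MV411 turned to -4.95 with strict peaks of the line, -5.13 with strict peaks in all lists, -0.85 in shortened lists, -17.3 at equal background and -8.89 at 200 bp. With the replicate block the change was -39.1 points (exact sign-flip test, p = 0.25, the smallest over 3 pairs), -20.9 against shared segments, and -33.9, -26.3 and 6.54 against the 3 lines, so the block changed no call. Depth limits single regions, whose median pileup with DMSO was 10 to 13 reads.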

Other observations

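The regions were spread over the genome, and the loci richest in them were those of very long genes. MACROD2 and PTPRD had 15 regions each, among 46 and 51 segments, and spanned 2057.68 and 2298.76 kb. FHIT had 14 regions among 29 segments, of which 7 were in no FHT-1015 list and 0 in all 3. Over all the regions 48.3% were in no list and 11.4% in all 3, so the first count at FHIT was near that share. At MACROD2 6 of 15 and at PTPRD 9 of 15 were in no list, with 1 each in all 3. LPP had 12 of 30, KCNIP4 11 of 38 and TUSC3 11 of 19. CAST, DCC and EYS had 10 each, and CHRM3, DAB1, ERC2, NRG3 and SOX5 had 9 each. The median gene locus had 0, and 41.5% of genes had at least 1.

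Most regions lay alone: 7072 of the 8122 had no other within 12.5 kb, and the largest of 501 groups held 4. Their spacing was not compared with that of shared segments or of randomly placed regions. There were 4 groups of 4, inside AQR on chromosome 15, HSH2D on chromosome 19, TUSC3 on chromosome 8 and CTTNBP2NL on chromosome 1. In the last of these 3 of the 4 regions were in no FHT-1015 list, and in the other 3 groups 1 of 4 was, where 48.3% of all the regions were. The share of 22RV1 segments that were open only in 22RV1 was highest on chromosomes 18 (16.2%), 21 (15.96%), 4 (15.8%), 13 (15.5%) and X (15.1%). It was lowest on chromosome 19 (2.51%, 51 regions) and chromosome 17 (6.04%).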
